A study of Mus musculus with 6 samples.

Results

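The immunoglobulin kappa chain repertoire of regenerated B cells was set beside that of natural B cells, in 1 iB-μMT mouse and 1 C57BL/6 mouse, referred to as iB-μMT and B6. All clonotypes of both kappa chain tables were taken, with no filter, which gave 1818 from the former mouse, 1696 from the latter, and 3514 of the 18182 clonotypes that the series holds over its heavy, kappa and lambda chain tables. A clonotype is here a distinct nucleotide sequence of CDR3, the loop that runs from a conserved cysteine at the end of the V segment to a conserved phenylalanine in the J segment, both residues included. The iB-μMT mouse was a μMT recipient, whose disrupted Ighm gene leaves it without mature B cells of its own. It was irradiated and then given hematopoietic progenitors (iHPCs) made in culture from the iR9X2-ESC line, an embryonic stem cell line on a C57BL/6 background that carries a GFP transgene and a doxycycline-inducible Runx1, Hoxa9 and Lhx2 cassette at Rosa26, and it drank water with doxycycline. The C57BL/6 mouse had no transplant, and no doxycycline is described for it. The spleen was taken at week 4 after transplantation, and the transplanted cells came from 1 stem cell line. Recipients were 8 to 10 weeks old at transplantation. The age of the B6 mouse is not given in the sources used here. From both mice 100000 naïve follicular (FO) B cells were sorted by surface markers, and no sort on GFP is described. Their identity could be checked here only through the immunoglobulin chains. The constant region gene IGKC was assigned to 1805 and 1690 clonotypes, with none assigned to the other 13 and 6, and no other constant gene was found.

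A kappa chain is made in the bone marrow, after the heavy chain, by the joining of 1 IGKV segment to 1 IGKJ segment without a D segment. The RAG enzymes cut beside both segments and leave hairpins. Their opening can leave palindromic bases, nucleases trim the ends, and terminal transferase, which adds bases without a template, is much less active at this stage than during heavy chain joining, so kappa junctions vary little. A cell whose first kappa chain is out of frame or self-reactive can join a V segment farther upstream to a J segment farther downstream, which replaces the first chain.

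The clonotypes with the most reads show what a common kappa junction looks like. The 6 largest of each mouse were 8 different sequences, printed here because all 8 were found in both mice. The letters in capitals are the bases after the last one that the V segment matches.

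IGKV6-15 and IGKJ5: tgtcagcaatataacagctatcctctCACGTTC
IGKV10-96 and IGKJ1: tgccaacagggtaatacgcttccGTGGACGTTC
IGKV6-15 and IGKJ2: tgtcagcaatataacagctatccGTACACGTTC
IGKV6-17 and IGKJ1: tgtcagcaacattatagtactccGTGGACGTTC
IGKV12-46 and IGKJ1: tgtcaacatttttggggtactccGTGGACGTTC
IGKV6-23 and IGKJ5: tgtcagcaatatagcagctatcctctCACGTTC
IGKV17-121 and IGKJ5: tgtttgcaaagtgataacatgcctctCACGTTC
IGKV10-96 and IGKJ2: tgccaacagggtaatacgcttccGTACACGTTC

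All 8 were 11 residues long and had no inserted base. The IGKV6-15 and IGKJ5 sequence was the largest in both mice, with 11430 reads in iB-μMT and 13285 in B6. The IGKV10-96 and IGKJ1 sequence had 10137 and 11769 reads, respectively, and the IGKV6-15 and IGKJ2 sequence had 7302 and 12910. The IGKV6-17 and IGKJ1 sequence, 4th in iB-μMT with 6912 reads, was 14th in B6 with 4999. The IGKV17-121 and IGKJ5 sequence, 4th in B6 with 9433 reads, was 11th in iB-μMT with 5280. The sequences with IGKJ5 ended in the same way, with the last 2 bases of the untrimmed V end also matching IGKJ5. The others had lost 1 or 3 bases of V.

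Depth was 562884 reads in iB-μMT and 534314 in B6. There was 1 library per mouse and chain, so no difference below has a replicate check, no p-value is given, and a difference between the 2 mice cannot be told apart from the differences that any pair of animals or library preparations would show. Intervals are 95% intervals over clonotypes. They are exact binomial intervals for shares, Newcombe intervals for differences of shares, and normal intervals from the standard error for differences of means, and they cover counting error only. Reads were amplified and no molecular identifier is described, so reads are not molecules. A kappa clonotype is also not a clone, since separate cells can reach the same junction. Many reads can come from an expanded clone, from separate cells with the same junction, or from more RNA per cell. These cannot be told apart here. Of the CDR3 sequences, 8.80% in iB-μMT and 13.6% in B6 had a minimum base quality below 38, the highest value in the tables.

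The kappa clonotypes of both mice drew on nearly the same IGKV genes in nearly the same proportions. Clonotypes identical in both mice, 49.2% and 52.7% of all, enter both counts. Leaving them out gave 924 and 802 clonotypes, with 9 of 65 genes at least 2-fold higher in iB-μMT and 4 at least 2-fold lower. There were 99 IGKV genes in iB-μMT and 98 in B6, 95 of them in common, spread over the locus on chromosome 6 at chr6:67555636-70704177 (RefSeq positions, GRCm38.p6, the assembly that mm10 in the labels stands for). Among the 83 genes with at least 10 clonotypes in both tables together, the median ratio of the share of clonotypes in iB-μMT to that in B6 was 0.973, and 70 of the 83 lay within 1.5-fold. IGKV17-121 (chr6:68036818-68037318) had the most clonotypes in both mice, 47 and 54, or 2.59% and 3.18% of all. IGKV6-23 (chr6:70260409-70260933) had 42 and 47, IGKV19-93 (chr6:68736297-68736764) had 44 and 45, and IGKV6-15 (chr6:70406469-70406992) had 42 and 43. The next most frequent genes had 35 and 39 (IGKV1-110), 30 and 42 (IGKV4-55), 36 and 35 (IGKV8-21), 38 and 32 (IGKV4-91), and 35 and 35 (IGKV8-19 and IGKV1-135). For each of these 10 genes the exact interval of the ratio included 1, as it did for IGKV10-96 (32 and 36 clonotypes), the remaining gene among the 3 with the most reads. Family by family the agreement was closer. IGKV4, the largest family, made up 25.6% of clonotypes in both mice, IGKV6 13.5% and 13.2%, IGKV8 10.1% and 9.20%, IGKV3 9.68% and 9.02%, and IGKV1 8.91% and 9.02%. The largest departure among the 10 largest families was that of IGKV17, whose ratio was 0.812 (exact interval 0.537 to 1.22). Among all families with at least 10 clonotypes it was that of IGKV9, with 35 and 45 clonotypes and a ratio of 0.726 (0.453 to 1.15).

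**Figure D1:**
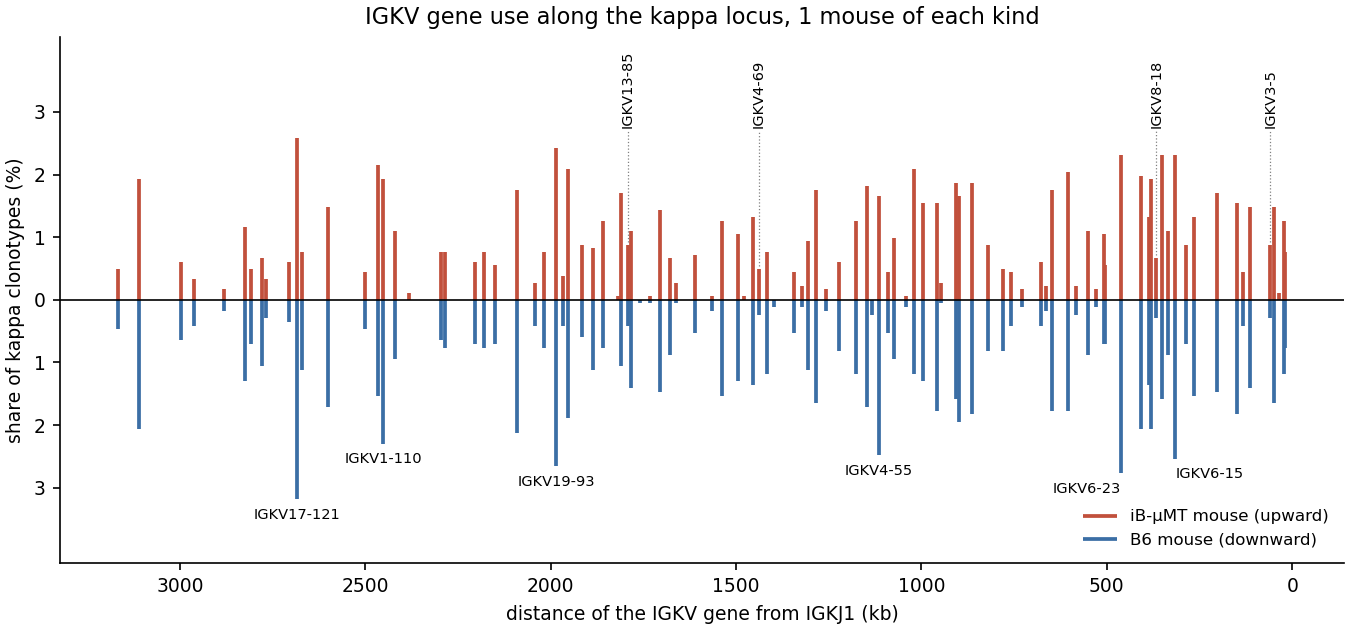
Share of kappa clonotypes (%) held by each IGKV gene, drawn at its distance from IGKJ1 in kb, upward for the iB-μMT mouse (1818 clonotypes) and downward for the B6 mouse (1696). The tall lines stand at the same genes above and below the axis; the 4 genes named above the axis are those with a share at least 2-fold higher in the iB-μMT mouse, and the 6 named below it are among the most used.

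Of the 83 genes, 4 had a share at least 2-fold higher in iB-μMT (4.82%) and 0 had a share at least 2-fold lower (0%), the lowest ratio being 0.600. IGKV3-5 had 16 clonotypes in iB-μMT and 5 in B6, a ratio of 2.99 (exact interval 1.05 to 10.4). IGKV8-18 had 12 and 5, a ratio of 2.24 (0.734 to 8.11), IGKV13-85 had 16 and 7, a ratio of 2.13 (0.830 to 6.13), and IGKV4-69 had 9 and 4, a ratio of 2.10 (0.586 to 9.33). These intervals are not adjusted for the 83 genes. They left out 1 for IGKV3-5 and for 1 other gene among the 83, IGKV4-50, with 38 and 20 clonotypes and a ratio of 1.77 (1.01 to 3.22), named because its interval was seen.

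The name of the V gene was itself uncertain for some sequences. The same CDR3 nucleotide sequence was found in both mice 1015 times, and in 121 of these (11.9%) the best V or J gene differed between the tables, in 61 the V gene and in 67 the J gene. In 52 of the 61 both V genes were of the same family. The most frequent exchange was between IGKV4-59 and IGKV4-68, with 9 sequences, followed by IGKV6-25 and IGKV8-24 with 8, and by IGKV13-84 and IGKV13-85 with 6. Of the 4 genes above, IGKV3-5, IGKV13-85 and IGKV4-69 took part in such exchanges, and a sequence of each is given with the gene of iB-μMT first, that of B6 after it, and the bases past the V end of the iB-μMT table in capitals.

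IGKV3-5 or IGKV3-4 with IGKJ2: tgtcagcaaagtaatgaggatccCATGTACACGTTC
IGKV4-69 or IGKV4-70 with IGKJ1: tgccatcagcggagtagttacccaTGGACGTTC
IGKV13-85 or IGKV13-84 with IGKJ1: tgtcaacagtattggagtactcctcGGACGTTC

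Counted together with the genes they were exchanged with, IGKV3-5 (with IGKV3-4 and IGKV3-10) had 71 and 64 clonotypes, a ratio of 1.03. IGKV13-85 with IGKV13-84 had 36 and 31, a ratio of 1.08. IGKV4-69 with IGKV4-70 and IGKV4-55 had 63 and 69, a ratio of 0.852, below 1 rather than above it. IGKV8-18 was in no exchange. Its clonotypes were small, with a median of 16.5 reads in iB-μMT and 42 in B6.

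**Figure D2:**
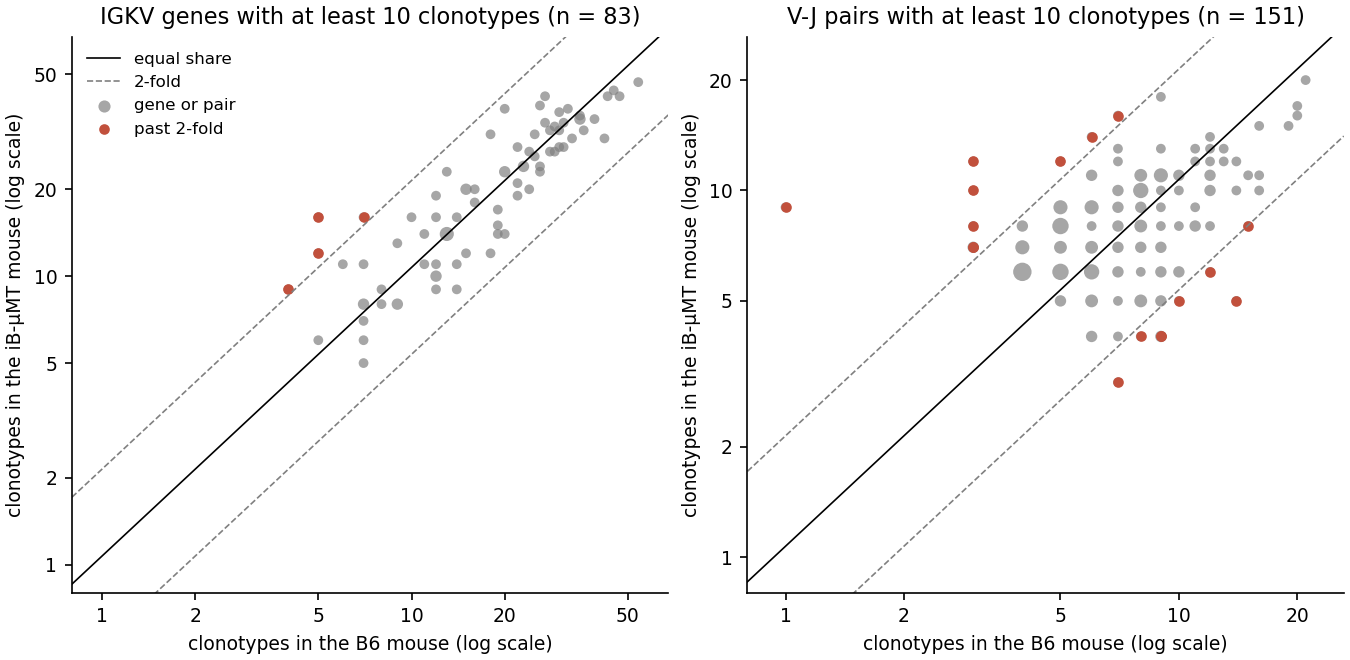
Number of clonotypes in the B6 mouse (x) against the iB-μMT mouse (y), on log axes, for the 83 IGKV genes (left) and 151 V-J pairs (right) with at least 10 clonotypes in both tables together; larger points hold several genes or pairs, the solid line marks an equal share and the dashed lines a 2-fold difference. The 4 genes and 17 pairs past 2-fold, some of them at the same point, are red and lie where counts are low.

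Position along the locus was also used alike. The IGKV genes found were split by their order into 3 groups of 34 genes each. The J-proximal group held 39.0% of clonotypes in iB-μMT and 37.6% in B6, the middle group 27.8% and 28.3%, and the J-distal group 33.2% and 34.1%. The largest of the 3 differences was 1.44 points (interval -1.78 to 4.65). Of the genes past 2-fold, 2 lay in the J-proximal and 2 in the middle group. Of the 102 genes found, 8 are V segment pseudogenes in RefSeq. They were assigned to 38 clonotypes in iB-μMT (2.09%) against 41 in B6 (2.42%), and 21 and 22 of these had IGKV14-126. Whether IGKV genes lie in the same or the opposite orientation to the J segments was not analysed here, because the gene table used holds no strand.

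Use of the J segments, which lie at chr6:70722562-70723923, differed by less than counting error in each case. IGKJ1 was found in 559 and 524 clonotypes (30.7% and 30.9%), IGKJ2 in 517 and 460 (28.4% and 27.1%), IGKJ4 in 292 and 259 (16.1% and 15.3%) and IGKJ5 in 450 and 453 (24.8% and 26.7%), and the interval of each difference included 0. IGKJ3 was found in 0 clonotypes of either mouse, which allows a share of up to 0.165% and 0.177%, taking 3 clonotypes of the total as the limit for a count of 0. In both mice IGKJ5 was most frequent among V genes of the middle group, at 27.3% and 29.8%, against 23.4% and 26.2% in the J-proximal group and 24.2% and 24.7% in the J-distal group. The exact intervals for the middle group, 23.5 to 31.4% and 25.7 to 34.1%, overlapped those of the other groups in each mouse. Clonotypes common to both mice enter both counts.

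V-J pairing gave 358 pairs in iB-μMT and 352 in B6, with 335 in both. The 23 pairs found only in iB-μMT had at most 4 clonotypes each and the 17 found only in B6 at most 3, and they held 2.04% and 1.36% of clonotypes. IGKV17-121 with IGKJ2 was the most frequent pair, with 20 and 21 clonotypes, followed by IGKV1-135 with IGKJ1 (17 and 20), IGKV19-93 with IGKJ1 (16 and 20), IGKV6-15 with IGKJ2 (15 and 19) and IGKV6-23 with IGKJ2 (15 and 16). Of the 151 pairs with at least 10 clonotypes together, 9 had a share at least 2-fold higher in iB-μMT (5.96%) and 8 a share at least 2-fold lower (5.30%). Weighted by reads, 14 of the 151 were at least 2-fold higher and 2 at least 2-fold lower. IGKV4-86 with IGKJ1 was found in 9 and 1 clonotypes, a ratio of 8.40 (exact interval 1.16 to 368). IGKV4-50 with IGKJ2 had 12 and 3, a ratio of 3.73 (1.01 to 20.6), and IGKV5-48 with IGKJ2 had 10 and 3, a ratio of 3.11 (0.801 to 17.6). The other pairs past 2-fold upward were IGKV4-90 with IGKJ5 (8 and 3), IGKV6-17 with IGKJ2 (12 and 5), IGKV4-72 with IGKJ1 (14 and 6), IGKV12-44 with IGKJ4 and IGKV1-88 with IGKJ2 (7 and 3 each), and IGKV4-91 with IGKJ4 (16 and 7). In the other direction, IGKV3-10 with IGKJ2 had 5 and 14, a ratio of 0.333 (0.0939 to 0.979), IGKV12-41 with IGKJ4 had 3 and 7, IGKV13-84 with IGKJ2 and IGKV9-120 with IGKJ1 had 4 and 9 each, IGKV12-89 with IGKJ1 had 4 and 8, IGKV5-43 with IGKJ5 had 5 and 10, IGKV4-80 with IGKJ2 had 6 and 12, and IGKV4-55 with IGKJ1 had 8 and 15. Weighted by reads, none of these 8 lower pairs was past 2-fold, and the ratio was above 1 for IGKV12-89 with IGKJ1 (1.76), IGKV3-10 with IGKJ2 (1.05) and IGKV4-55 with IGKJ1 (1.01). The exact interval left out 1 for 3 of the 151 pairs, unadjusted. Some of these pairs have V genes that took part in the exchanges above. They are IGKV4-72 and IGKV5-48 among the higher pairs, and IGKV3-10, IGKV13-84, IGKV5-43 and IGKV4-55 among the lower ones. With exchanged V genes joined, an alternative chosen after seeing the data, 7 of 147 pairs were at least 2-fold higher and 5 at least 2-fold lower.

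Most pairs lay near the product of their V and J shares. Of the pairs for which at least 5 clonotypes would follow from it, 148 in iB-μMT and 139 in B6, 7 and 8 were at least 2-fold below. Those at least 2-fold above numbered 2 and 0. Some pairs departed from the product in both mice, and 3 of them are given as examples. IGKV4-91 with IGKJ1 was found in 3 clonotypes of iB-μMT where 11.7 would follow from that product, and in 2 where 9.89 would follow in B6. IGKV17-121 with IGKJ1 was found in 4 and 7, against 14.5 and 16.7. IGKV1-135 with IGKJ1 was found in 17 and 20, against 10.8 in both. Clonotypes common to both mice enter both counts, so these are not separate observations. IGKV4-86 with IGKJ1, in contrast, was close to the product in iB-μMT (9 against 9.53) and below it in B6 (1 against 5.56). IGKV4-72 with IGKJ1 was above it in iB-μMT (14 against 5.84) and close to it in B6 (6 against 6.80). IGKV4-72 was among the exchanged V genes, with 5 sequences exchanged with IGKV4-59 and 4 with IGKV4-68. A sequence assigned to IGKV4-72 and IGKJ1 in iB-μMT, with 1165 reads, was assigned to IGKV4-68 and IGKJ1 in B6, with 705 reads. How far this contrast rests on the V gene assigned was not tested.

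The profile of CDR3 lengths differed by more than counting error. Clonotypes of 11 residues, the commonest length, numbered 858 in iB-μMT (47.2%, interval 44.9 to 49.5%) against 886 in B6 (52.2%, 49.8 to 54.6%), a difference of -5.05 points (-8.34 to -1.74). Those of 12 residues numbered 360 (19.8%) and 273 (16.1%), a difference of 3.71 points (1.17 to 6.23). At 10 residues the shares were alike, 22.0% and 22.2%. At 13 residues they were 5.94% and 4.78%, a difference of 1.17 points (-0.335 to 2.66). The mean length was 11.01 residues in iB-μMT and 10.95 in B6, and the mean difference of 0.0537 had an interval that included 0. Weighted by reads, 85.8% and 90.0% of the repertoire was 11 residues long, 9.79% and 7.06% was 10, and 3.25% and 2.13% was 12.

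**Figure D3:**
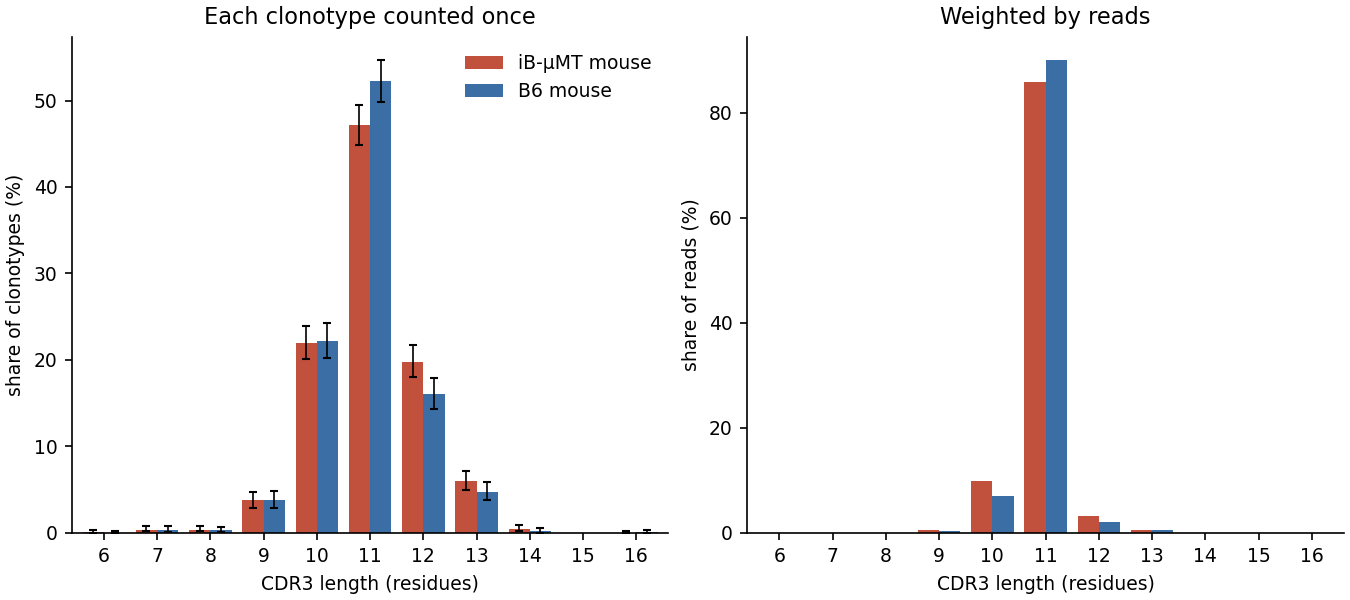
Share of kappa clonotypes (left, %) and of kappa reads (right, %) by CDR3 length in residues, for the iB-μMT mouse (red) and the B6 mouse (blue); bars on the left carry exact 95% binomial intervals, and 1 clonotype of 26 residues in the B6 mouse lies outside the axis. The bar at 11 residues is lower in the iB-μMT mouse in both panels and the bar at 12 residues is higher.

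An example of both lengths from 1 pair of segments shows where the extra residue lies. Both sequences were in both mice, with 7302 and 12910 reads at 11 residues and 233 and 359 reads at 12, and capitals again mark the bases after the V end.

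IGKV6-15 and IGKJ2, 11 residues: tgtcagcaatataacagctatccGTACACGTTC
IGKV6-15 and IGKJ2, 12 residues: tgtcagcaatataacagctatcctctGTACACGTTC

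The shorter of the pair had lost 3 bases of V and 1 of J, and the longer had lost none.

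The share of 11 residues was lower in iB-μMT with every J gene and most V families, though most of these differences lay within counting error. The groups come from the same pair of libraries, so they are not separate checks. Clonotypes of 11 residues had a lower share in iB-μMT with each of the 4 J genes, with a difference of -4.10 points for IGKJ1, -5.44 for IGKJ2, -9.32 for IGKJ4 and -2.52 for IGKJ5, and the interval left out 0 only for IGKJ4 (-17.5 to -0.960). Of the 14 V families with at least 20 clonotypes in each mouse, 11 had the lower share in iB-μMT. The exceptions were IGKV10, IGKV8 and IGKV9, and IGKV9 had 77.1% of 35 clonotypes against 55.6% of 45 (interval of the difference 0.527 to 39.6 points). IGKV17, at the other end, had 25.5% of 47 against 46.3% of 54 (-37.4 to -1.94). For every other family the interval included 0. Of 37 single V genes with at least 20 clonotypes in each mouse, 26 had the lower share in iB-μMT, 10 the higher, and 1 was equal. Clonotypes found in both mice enter both libraries with the same length. Among those found in 1 mouse, 31.2% of 924 and 39.4% of 802 were 11 residues long, a difference of -8.23 points (-12.7 to -3.72), and 26.2% and 19.3% were 12 residues long. In each class of reads per clonotype the share of 11 residues was also lower in iB-μMT, but no interval was calculated for these differences. The classes at 1 read (108 and 117 clonotypes) and at 1000 reads or more (148 and 138) are small. At 1 read the shares of 11 residues were 38.9% and 44.4%, at 2 to 9 reads 30.4% and 43.3%, at 10 to 99 reads 33.5% and 36.6%, at 100 to 999 reads 70.2% and 79.5%, and at 1000 reads or more 92.6% and 94.2%.

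The first residues of CDR3 come from the V segment, and they were used alike. Glutamine at positions 2 and 3, counted from the conserved cysteine as position 1, was found in 51.5% and 49.6% of clonotypes. Among clonotypes of 11 residues, the 9th position, the first that usually belongs to J, followed the J gene in both mice. With IGKJ1 it was tryptophan in 45.9% and 45.2%, arginine in 25.8% and 26.1% and proline in 17.6% and 19.1%. With IGKJ2 it was tyrosine in 78.9% and 75.8%, and with IGKJ5 leucine in 69.5% and 69.1%. With IGKJ4 it was phenylalanine in 125 of 134 clonotypes (93.3%) of iB-μMT and 119 of 143 (83.2%) of B6, a difference of 10.1 points (2.43 to 17.7), the only one of these residues whose interval left out 0. A second cysteine inside CDR3 was found in 12 clonotypes (0.660%) and 15 (0.884%).

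Position 8 is usually proline, a residue encoded near the end of most IGKV segments that gives the kappa CDR3 loop its bend. In clonotypes of 11 residues it was proline in 85.1% in iB-μMT and 89.4% in B6, a difference of -4.31 points (-7.46 to -1.18), or -1.36 points when weighted by reads. IGKV19-93, the gene of the IGKV19 family, was the exception in both mice, with proline in 3 of 21 and 4 of 22. Most of the difference lay with IGKJ4, where 98 of 134 clonotypes (73.1%) had proline at position 8 in iB-μMT and 130 of 143 (90.9%) in B6, a difference of -17.8 points (-26.7 to -8.82). With the other 3 J genes together it was 87.3% of 724 and 89.1% of 743, a difference of -1.81 points whose interval (-5.13 to 1.50) included 0.

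The most frequent other residue at position 8 of these IGKJ4 clonotypes was isoleucine. There were 24 of 134 (17.9%) against 8 of 143 (5.59%) in B6, a difference of 12.3 points (4.79 to 20.2). This comparison was picked after the residues at each position had been seen, out of all J genes and residues. The 24 clonotypes used 20 different V genes and the 8 used 8. In 22 of the 24 and in all 8, the J segment was intact and had 2 further bases before it. The examples give the 4 of iB-μMT with the most reads, with these 2 bases in capitals. In these sequences the IGKJ4 part begins with the letters attc, and the 2 capitals are the reverse complement of its first 2 bases.

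IGKV13-84 and IGKJ4: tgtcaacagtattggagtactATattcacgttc
IGKV6-20 and IGKJ4: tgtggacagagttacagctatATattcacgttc
IGKV3-4 and IGKJ4: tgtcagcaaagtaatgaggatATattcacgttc
IGKV6-17 and IGKJ4: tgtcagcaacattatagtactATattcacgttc

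These clonotypes were of middling or small size, with 1 to 97 reads (median 23) in iB-μMT and 5 to 89 (median 31) in B6, and held 1.05% and 0.491% of the reads of 11-residue IGKJ4 clonotypes. Of them, 5 were the same in both mice. Among clonotypes with at least 10 reads, proline at position 8 was found with IGKJ4 in 75.4% of 114 and 90.6% of 117, so the difference did not rest on the smallest clonotypes. The 2 palindromic bases before IGKJ4 did not have a higher share in iB-μMT at 12 or 13 residues. They were found in 15.7% and 4.90% of IGKJ4 clonotypes at 11 residues, in 12.5% and 22.9% at 12 residues, and in 40.0% of 15 and 58.3% of 12 at 13 residues.

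For the mean trimming of V and of J, the interval of the difference held 0. The mean number of bases deleted from the V end was 2.63 (SD 2.83 over clonotypes) in iB-μMT and 2.65 (SD 2.91) in B6, a difference of -0.0167 (interval -0.207 to 0.173). The V end was intact in 520 clonotypes (28.6%) and 483 (28.5%). A loss of 3 bases, a whole codon, was the most frequent loss, in 390 (21.5%) and 392 (23.1%). The J end lost 1.24 (SD 1.50) and 1.28 (SD 1.45) bases on average, a difference of -0.0367 (-0.134 to 0.0608). A J end with exactly 2 bases past its start was found in 131 clonotypes (7.21%) and 89 (5.25%), a difference of 1.96 points (0.355 to 3.56). Trimming differed between J segments in both mice. J deletion was shortest with IGKJ4, 0.750 and 0.707 bases on average, and longest with IGKJ1 in iB-μMT (1.50 against 1.42) and with IGKJ2 in B6 (1.29 against 1.44). V deletion was shortest with IGKJ5, 2.05 and 2.21 bases, and V ends were intact most often there, in 177 of 450 and 172 of 453 clonotypes.

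**Figure D4:**
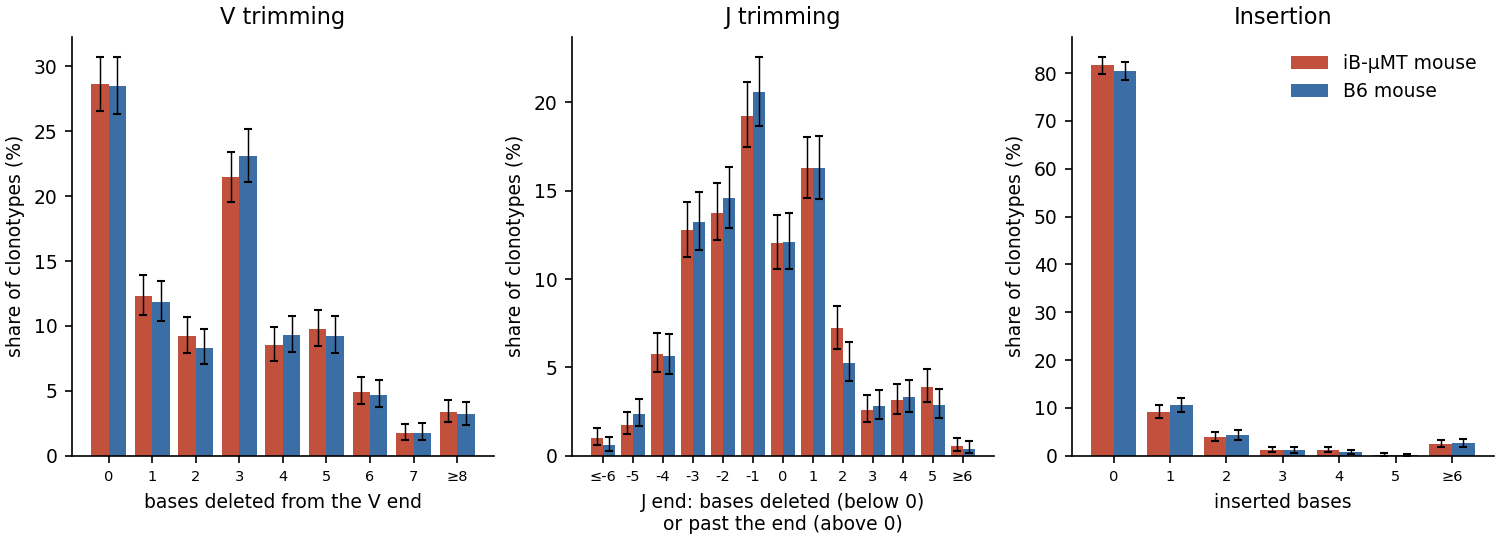
Share of kappa clonotypes (%) by the number of bases deleted from the V end (left), by the J end (middle; bases deleted below 0, bases past the J start above 0) and by the number of inserted bases (right), for the iB-μMT mouse (red) and the B6 mouse (blue) with exact 95% binomial intervals. Both profiles have peaks at 0 and 3 bases deleted from V, at 1 base deleted from J with a second peak at 1 base past its start, and at 0 inserted bases.

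In most kappa junctions the alignment left no base between the V end and the J start. This was so for 1485 clonotypes (81.7%) in iB-μMT and 1365 (80.5%) in B6, a difference of 1.20 points (-1.39 to 3.80). A single inserted base was found in 9.24% and 10.6%, and 2 bases in 4.02% and 4.30%. V and J met with neither overlap nor inserted bases in 47.4% and 44.0%, a difference of 3.31 points (0.0188 to 6.60). They overlapped by at least 1 base that either could have supplied in 34.3% and 36.4%, most often with IGKJ5 (51.1% and 57.0%). Of the inserted bases in clonotypes that had lost fewer than 10 bases of V, 581 and 593 in number, 43.0% and 43.7% were C and 12.2% and 13.3% were G, on the strand of the transcript. Germline V sequences were not available here, so whether some of these bases belong to a V end longer than the aligned one was not tested. Weighted by reads, the mean number of inserted bases was 0.0948 in iB-μMT and 0.110 in B6. With IGKV10, the family of the first example below, it was 0.275 and 0.232. The examples show in capitals the bases counted as inserted. The first, with 2115 reads in iB-μMT and 2182 in B6, is the largest with at least 2 inserted bases and fewer than 10 lost from V, and the second, with 216 and 270 reads, is the largest with 10 or more lost.

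IGKV10-96 and IGKJ1: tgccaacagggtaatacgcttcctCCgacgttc
IGKV14-126 and IGKJ2: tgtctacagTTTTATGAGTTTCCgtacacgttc

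The second stands for junctions that the alignment may not have resolved. In 42 and 40 clonotypes 10 or more bases were deleted from V, with 9.95 and 10.2 inserted bases on average. Of these, 11 and 9 had IGKV14-126, a pseudogene in RefSeq, cut back by exactly 17 bases, and their inserted stretch differed at 7 positions from the end of the untrimmed IGKV14-126 clonotypes. Without all such clonotypes the mean number of inserted bases was 0.327 in iB-μMT and 0.358 in B6, in place of 0.550 and 0.590. The longest CDR3, 26 residues with 47 inserted bases and 3 reads in B6, carried, 25 bases after its V end, the first 25 bases of the CDR3 of another V gene, IGKV6-32, a match that ran from the inserted bases into the J segment.

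Palindromic bases at the J end were counted where at least 1 base past the start of J was not also matched by V and all of them were the exact reverse complement of the first bases of J. There were 282 such clonotypes in iB-μMT (15.5%, interval 13.9 to 17.3%) against 220 in B6 (interval 11.4 to 14.7%), a difference of 2.54 points (0.224 to 4.84). Weighted by reads, the difference was 0.481 points. They were most frequent with IGKJ2, 24.2% and 19.1%, and IGKJ4, 21.9% and 17.8%, and less so with IGKJ5, 9.33% and 7.06%, and IGKJ1, 9.12% and 10.3%, the only J gene for which the share was lower in iB-μMT. The largest in each mouse with at least 2 such bases are printed with these bases in capitals, the first from iB-μMT and the second from B6.

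IGKV6-15 and IGKJ2: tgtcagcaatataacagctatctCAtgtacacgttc
IGKV17-121 and IGKJ2: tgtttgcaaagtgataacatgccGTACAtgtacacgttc

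At the V end, bases past the segment were reported in 0 clonotypes of either table, which by the same limit of 3 clonotypes allows a share of up to 0.165% and 0.177%. That limit covers counting only. The V end was intact in 520 and 483 clonotypes, and whether the alignment would report bases past it was not tested. The values therefore do not give the frequency of palindromic bases at V.

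Stop codons were found in 16 clonotypes of iB-μMT (0.880%, interval 0.504 to 1.43%) against 21 of B6 (1.24%, 0.768 to 1.89%). They were small, with medians of 2.5 and 2 reads and at most 33 and 48, and none was in both mice. No clonotype was out of frame.

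Reads per clonotype were spread over 4 orders of magnitude in both mice. The quartiles were 16, 42 and 166 reads in iB-μMT and 15, 37 and 157 in B6. As much as 50% of the reads lay in the 80 largest clonotypes of iB-μMT and the 64 largest of B6, and 90% in the 438 and 379 largest. The 100 largest held 56.5% and 61.3% of reads. Single reads made up 108 clonotypes (5.94%) and 117 (6.90%), and 91.7% and 97.4% of these had a minimum base quality below 38, so sequencing quality moved with the smallest class in both tables. At 2 to 9 reads the shares below 38 were 33.9% in iB-μMT and 62.8% in B6, a wider gap. The highest base quality alone was 1 of the alternatives given below. The part of quality was otherwise not tested.

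**Figure D5:**
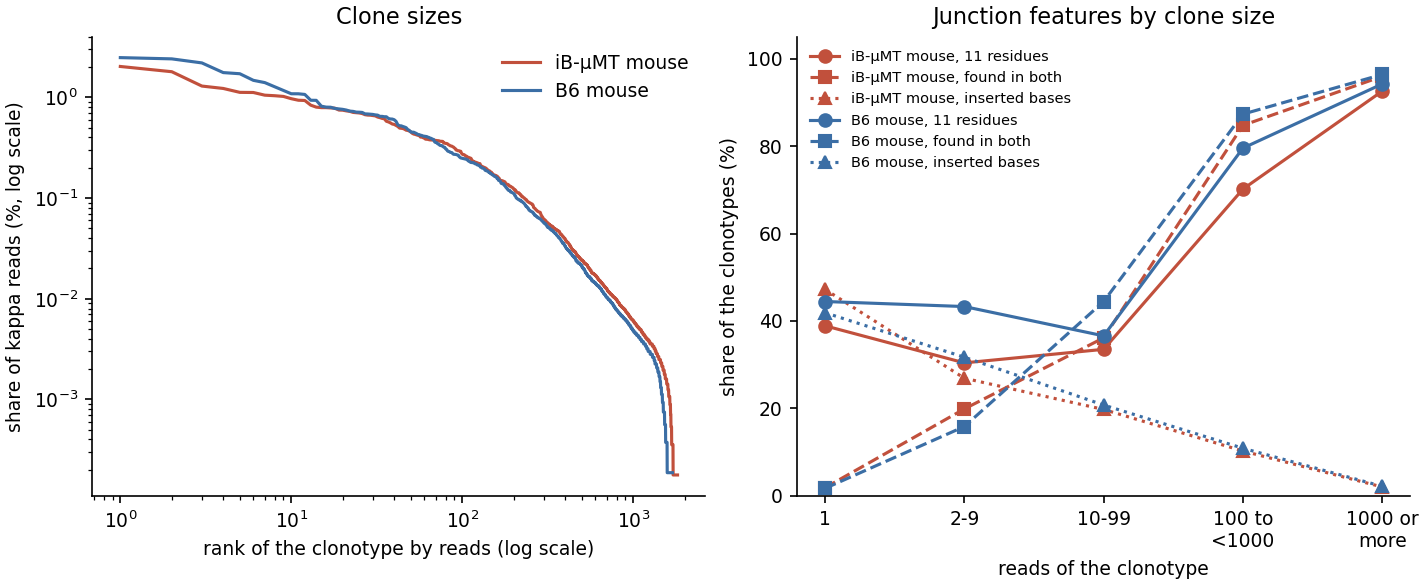
Left, share of kappa reads (%, log scale) of each clonotype by its rank (log scale) in the iB-μMT mouse (red) and the B6 mouse (blue). Right, share of the clonotypes of each size class (in reads) that were 11 residues long (circles), found in both mice (squares) or carried inserted bases (triangles); in the largest class over 90% were 11 residues long and found in both mice, and about 2% carried inserted bases.

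Large clonotypes differed from small ones in the same way in both mice. From 1 read to 1000 reads or more, the share with inserted bases went from 47.2% to 2.03% in iB-μMT and from 41.9% to 2.17% in B6, and the mean V deletion from 4.44 to 2.19 bases and from 4.48 to 2.14. The share found in both mice went from 1.85% to 95.9% and from 1.71% to 96.4%. Most of the largest clonotypes of each mouse were therefore also in the other, so the values of the largest class are not separate observations. Clonotypes of 12 residues made up 25.8% and 22.3% of those with 10 to 99 reads and 10.3% and 6.22% of those with 100 to 999.

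An identical junction and V-J pair occurred in both mice for 894 clonotypes, or 49.2% and 52.7% of all, against 34 (0.436% and 0.501%) of the heavy chain clonotypes. Of the 100 largest kappa clonotypes of either mouse, 98 were found in the other. Over the 894, the read share in iB-μMT divided by that in B6 had a median of 1.05, with quartiles of 0.678 and 1.70, so a clonotype common in 1 mouse was usually common in the other. Counted as amino acid sequences, 796 were in both mice, of 1383 CDR3 sequences in one (57.6%) and of 1304 in the other, B6 (61.0%). The same V gene, J gene and amino acid sequence was reached through at least 2 nucleotide sequences in 14.2% of cases in both mice, 225 of 1582 and 209 of 1474, and through at most 4. Near-identical sequences were not merged for this count. In all, 163 and 138 clonotypes lay 1 mismatch from one with at least 10 times the reads. How many of the cases rest on such sequences was not tested.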

How the data were processed

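Kappa chain transcripts of sorted naïve FO B cells were amplified by 5′ RACE and sequenced on a MiSeq as paired reads, 1 library per mouse. The authors converted the run with bcl2fastq, assembled the reads with MiXCR and deposited 1 clonotype table per library, in which each clonotype has a count of reads, not normalized, a fraction (its count over the table's total) and a quality score, the lowest base quality within CDR3. The build mm10 is named in the submitters' processing notes without a role, and the V(D)J reference that MiXCR aligned to is not given in the sources used here. The tables hold in-frame sequences alone and no coordinates. Depth was 562884 and 534314 reads, and 3 reads are 0.000533% and 0.000561% of them. Precision was set by the 1818 and 1696 clonotypes.

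The best V and J hits were used, and 536 and 537 clonotypes listed more than 1 V hit. Gene positions came from the RefSeq table of GRCm38.p6, in which all 102 IGKV names were found. Junctions were read from the reference points column, in which a negative value counts deleted bases and a positive one bases past the gene's end, the opposite of the sign first assumed. Each clonotype was counted once. Genes and pairs with at least 10 clonotypes in both libraries together were compared by the ratio of their shares, with a call at 2-fold, and a count of 0 would have been set to 3 clonotypes. Text names the 10 most frequent genes, all past 2-fold, the 3 with the most reads per mouse, all J genes, the most frequent pairs and those past 2-fold, and the 6 largest clonotypes per mouse. The members and these lists were chosen with earlier results of these data known. The junction reader, the ratio call and the interval of a difference were checked on simulated data. Alternatives were read minimums of 2 and 5, merging of sequences 1 mismatch from one with at least 10 times the reads, leaving out stop codons, weighting by reads, equal read numbers, a single best V hit, leaving out clonotypes of both mice, and a minimum of 20 clonotypes. Another 5 were chosen after seeing the data. Computations used Python 3.11.15, NumPy 2.4.6, pandas 2.3.3, SciPy 1.17.1 and Matplotlib 3.10.9.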

Additional observations from a re-analysis of the deposited data

How the results depend on the processing

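Over 22 summary results and their alternatives, 209 values in all, 183 stayed within the interval of the value given (or within 1.5 times it for counts and ratios), and 0 of the differences whose interval left out 0 changed sign. The lower share of 11 residues and the higher share of palindromic bases stayed within their intervals under every alternative run, although weighting by reads lowered the latter to 0.481 points. Counts of genes and pairs past 2-fold varied between settings, and so did the numbers of genes and pairs compared. The total is given where it changed from 83 genes or 151 pairs. Genes at least 2-fold higher numbered 2 rather than 4 with at least 5 reads and with the highest base quality alone. These genes numbered 2 of 69 with a minimum of 20 clonotypes and 2 of 73 with exchanged V genes joined. Without clonotypes found in both mice they numbered 9 of 65. Genes at least 2-fold lower numbered 3 rather than 0 when weighted by reads and 4 of 65 without clonotypes found in both mice. Joining exchanged V genes gave IGKV4-69 a ratio of 0.852. Weighted by reads, pairs at least 2-fold higher numbered 14 rather than 9 and pairs at least 2-fold lower 2 rather than 8, and the ratio turned above 1 for IGKV12-89 with IGKJ1 (1.76), IGKV3-10 with IGKJ2 (1.05) and IGKV4-55 with IGKJ1 (1.01). Pairs at least 2-fold higher numbered 5 of 136 after merging near-identical sequences and 2 of 36 with a minimum of 20. Pairs at least 2-fold lower numbered 5 of 139 with at least 2 reads and 5 of 147 with V genes joined. The lower pairs numbered 4 of 136 after merging and 1 of 36 with a minimum of 20. Weighted by reads, the IGKJ1 difference was 2.91 points and the mean length difference -0.0181 residues. Without clonotypes found in both mice, proline at position 8 differed by -13.5 points, junctions without inserted bases by 3.82, single-read clonotypes by -2.87, and the read share of the 10 largest by -1.40 in place of -4.33. That read share differed by -4.64 after merging. The share of iB-μMT clonotypes found in the B6 mouse was 52.1% with at least 2 reads, 53.3% with at least 5, 52.7% at the highest base quality and 55.8% by nucleotides alone. The cause of these changes was not tested, except that fewer clonotypes enter under the stricter settings. The joining of V genes, the base quality limit, the limit of 10 deleted V bases, the weighting of pairs by reads and sharing by nucleotides alone were chosen after seeing the data. A read minimum leaves no single-read clonotypes, so that result has no value there. No paired analysis was possible because there was 1 library per mouse. Single genes had at most 54 clonotypes per mouse, and their intervals are as wide as those counts give.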
